A study of Rattus norvegicus with 939 samples.

Results

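Valeric acid is the straight-chain short-chain fatty acid of the series, applied to primary rat hepatocytes at a dose of 23000 uM. Its arrays were chosen by the compound label. There were 6 of them among 939 arrays, 3 after 0.67 d and 3 after 1 d of exposure, and they were set against the 6 DMSO vehicle arrays whose description names Valeric Acid, again 3 per exposure time. The series is a compendium of hepatocytes, isolated from rat liver and kept in culture, that were exposed to drugs and toxicants and read on a whole-genome expression array. The question of the comparison is which transcripts differ between treated and matched control cells of the same exposure time. The rat strain, sex and age of the donors are not given in the labels used here. The 6 vehicle arrays serve 11 other compounds as well, namely the toxins Phalloidin, Microcystin-LR, Antimycin A and Monocrotaline, the drugs Omeprazole, Amineptine, Methapyrilene, 6-Mercaptopurine and 4,4'-Diethylaminoethoxyhexestrol, and also N-Nitrosodiethylamine and Ceramide C2. Only 1 dose of valeric acid was applied, so no dose response can be read. The vehicle was DMSO, and the labels do not state the pH of the medium or whether the acid was added as a salt.

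Short-chain fatty acids enter hepatocytes by diffusion and through monocarboxylate carriers. Inside mitochondria they are joined to coenzyme A and oxidised, and a chain with an odd number of carbons, such as that of valeric acid, ends in acetyl-CoA and propionyl-CoA. Acids of this class are also known as weak inhibitors of histone deacetylases, the enzymes that take acetyl groups off histones. Valproic acid, a branched derivative of valeric acid that carries a propyl group on the second carbon, is an antiepileptic drug with known effects on histone deacetylases and on liver lipid metabolism, and it was also applied in the series.

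Values are log2 signals after RMA, a procedure that corrects the background, normalises between arrays and summarises the probes of a transcript. Such values carry no detection call, and levels of different genes are not compared because each probe set has its own brightness. A log2 change is the mean of the valeric acid arrays minus the mean of the vehicle arrays within exposure time, given with its standard error (SE). A gene was called when its Benjamini-Hochberg adjusted p in limma was 0.01 or less and its change was 1.5-fold or more. By this rule 4039 of 14218 genes (28.4%) were called, of which 1947 (13.7%) were higher and 2092 (14.7%) were lower after valeric acid. The median change of all genes was 0.01. The treated and vehicle arrays did not overlap in 5552 genes (39%), 2826 of them higher (19.9%) and 2726 lower (19.2%), and in 3755 of the 4039 called genes. Changes of 2-fold or more were seen in 875 higher and 994 lower genes, and changes of 8-fold or more in 15 higher and 18 lower genes. The first principal component of the 12 arrays, with 75.8% of the variance, separated the 6 treated from the 6 vehicle arrays, and the second, with 7.1%, set replicate 3 apart in both groups. The replicate number marks a culture day in the control titles, and the same culture days recur at both times. The reported fit has no term for it, so n = 6 counts arrays and not cultures. In 4014 of the 4039 called genes all 6 differences between arrays of the same replicate number and time, treated minus vehicle, had the called direction. The genes were called from these same arrays, so that count is largely set by the call and is no separate support. With hybridization day as a block 4009 genes were called, with extraction day 4064 and with replicate number 4138. The 9 hepatocyte markers measured had a mean signal of 12.14 (12.09 to 12.20 over arrays) in valeric acid arrays, against 12.20 (12.07 to 12.34) in vehicle arrays. That mean hides opposite changes, since 2 markers were called higher, Tat (1.05) and Cyp2e1 (0.84), and 1 lower, Apob (-2.24). Nothing in the labels says that arrays of a treated group came from separate cultures, and p-values then measure the spread between these arrays.

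The gene with the largest change was Pdk4, the kinase that phosphorylates and switches off the pyruvate dehydrogenase complex. Its lowest, median and highest log2 signals were 11.63, 12.32 and 12.62 in valeric acid arrays, against 6.00, 6.79 and 7.56 in vehicle arrays. The change was 5.38 ± 0.24 (SE, n = 6 each), or 41.7-fold, with an adjusted p of 1.29e-09. The treated arrays lay close together and the vehicle arrays spread more widely, with the lower vehicle values at 1 d. Cdkn3, a phosphatase that acts on cyclin-dependent kinases, had signals of 8.39, 8.96 and 9.37 in valeric acid arrays, against 4.20, 4.41 and 4.60 in vehicle arrays, a change of 4.48 ± 0.11 (22.3-fold, adjusted p = 2.84e-11). Ddit3, which encodes the stress transcription factor CHOP, reached 12.36, 12.63 and 12.74 in valeric acid arrays, against 7.90, 8.64 and 9.28 in vehicle arrays (3.96 ± 0.17, 15.6-fold). Its 6 treated arrays covered a narrow range that started well above the highest vehicle array. Txnip, which binds and inhibits thioredoxin and restrains glucose uptake, had 10.30, 11.18 and 12.09 in valeric acid arrays, against 6.69, 7.14 and 8.37 in vehicle arrays (3.80 ± 0.34). Here both groups were wide, and the arrays still did not overlap. The cyclin-dependent kinase inhibitor Cdkn1c (p57) had 7.12, 7.82 and 8.34 in valeric acid arrays, against 4.27, 4.49 and 4.76 in vehicle arrays (3.31 ± 0.14), and its 3 treated arrays at 1 d were all above the 3 at 0.67 d. The other members of the 12 largest were the kinase gene Rps6ka5, whose product MSK1 phosphorylates histone H3 and CREB (3.65), the interferon-induced antiviral gene Rsad2 (3.58), the small GTPase gene Rab40b (3.57), the mitochondrial arginase Arg2 (3.55), the stress cytokine Gdf15 (3.51), Apc2, a relative of APC known mainly from neurons (3.47), and the centromere protein gene Cenpk (3.33). Adjusted p-values of the 12 lay between 2.84e-11 and 6.12e-07.

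**Figure D1:**
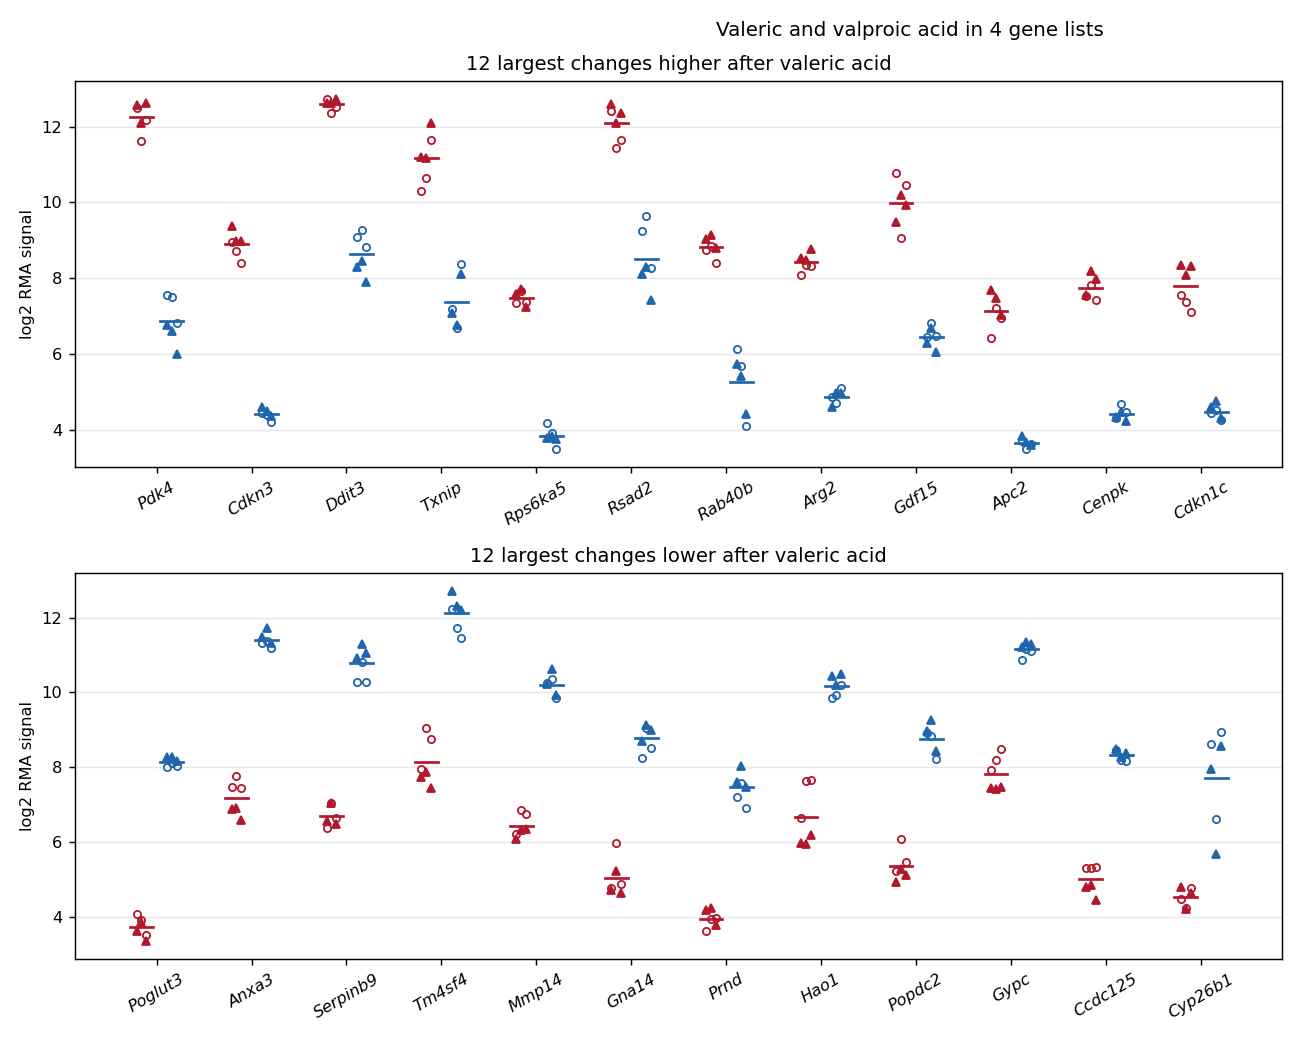
Log2 RMA signal of the 12 genes with the largest changes in each direction among called genes whose groups do not overlap, with 1 point per array (circles 0.67 d, triangles 1 d), valeric acid in red left of vehicle in blue, and a line at each mean of 6 arrays. The panels hold valeric acid and vehicle arrays only, with no valproic acid array and no gene list. Pdk4 sits at 11.63 to 12.62 in valeric acid arrays and 6.00 to 7.56 in vehicle arrays, and Poglut3 at 3.36 to 4.08 in valeric acid arrays and 8.01 to 8.29 in vehicle arrays.

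Among lower genes the largest change belonged to Poglut3, an enzyme of the endoplasmic reticulum that adds glucose to EGF-like repeats. Its signals were 3.36, 3.75 and 4.08 in valeric acid arrays, against 8.01, 8.15 and 8.29 in vehicle arrays, a change of -4.42 ± 0.11 (21.4-fold lower, adjusted p = 3.13e-11). Anxa3, a calcium-dependent phospholipid-binding protein, had 6.59, 7.19 and 7.76 in valeric acid arrays, against 11.18, 11.35 and 11.71 in vehicle arrays (-4.22 ± 0.16, 18.6-fold lower). The vehicle arrays of both genes lay within a narrow band, and no treated array came near it. Anxa3 has 4 probe sets on the array, and their changes ranged from -4.22 to -0.92. Mmp14, the membrane-bound matrix metalloproteinase, had 6.08, 6.34 and 6.88 in valeric acid arrays, against 9.85, 10.24 and 10.63 in vehicle arrays (-3.77 ± 0.16). Hao1, the peroxisomal glycolate oxidase of liver, had 5.97, 6.43 and 7.67 in valeric acid arrays, against 9.85, 10.19 and 10.49 in vehicle arrays (-3.50 ± 0.28). The treated Hao1 values were split by time, with the 3 arrays at 1 d below the 3 at 0.67 d. Cyp26b1, which hydroxylates retinoic acid, spread most widely among the vehicle arrays (5.68 to 8.94), against 4.23 to 4.80 in valeric acid arrays, and had a change of -3.20 ± 0.47 and the weakest test of the 12 (adjusted p = 5.14e-05). The rest were the granzyme B inhibitor Serpinb9 (-4.08), the membrane protein gene Tm4sf4 (-3.97), the G protein subunit Gna14 (-3.74), the prion-like gene Prnd (-3.51), Popdc2, a cAMP-binding membrane protein (-3.41), glycophorin C, Gypc (-3.33), and Ccdc125 (-3.31).

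**Figure D2:**
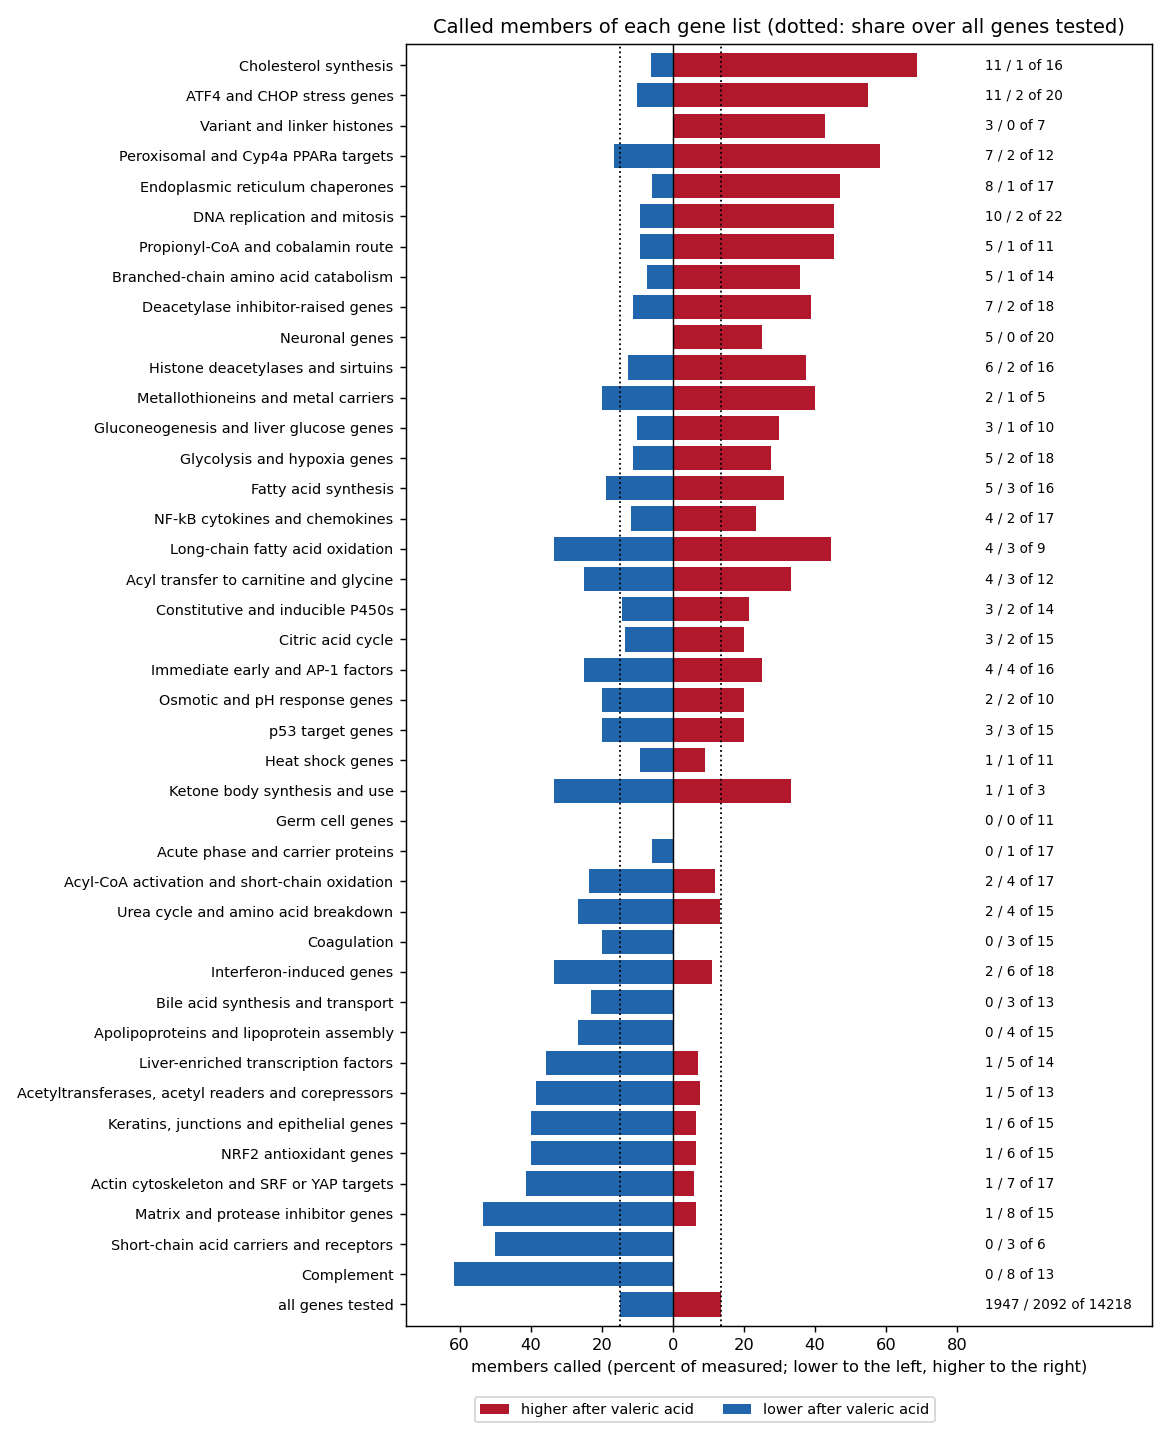
Share of the measured members of each of 41 gene lists called lower (blue, left) and higher (red, right) after valeric acid, in percent of measured members, with the counts at the right and the share over all genes tested dotted. Cholesterol synthesis (11 of 16 higher) and ATF4 and CHOP stress genes (11 of 20 higher) stand at the top, and complement (8 of 13 lower) at the bottom.

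Counts of called members in this and the later lists stand beside 13.7% higher and 14.7% lower over all genes. Not every list departs from these shares. Genes tied to histone acetylation moved in both directions. Of 18 measured genes that deacetylase inhibitors are known to raise in other cells, 7 were higher and 2 lower, with a median change of 0.33 beside 0.01 for all genes. Besides Txnip and Cdkn1c, the growth arrest genes Gadd45b (2.46 ± 0.12) and Gadd45a (0.91 ± 0.06) and the neuronal tubulin Tubb3 (1.72 ± 0.20) were higher. Gadd45b had signals of 10.89, 11.22 and 11.75 in valeric acid arrays, against 8.36, 8.82 and 9.20 in vehicle arrays, which did not overlap. Cdkn1a (p21), a common readout of such inhibitors, was not called, with 9.64, 10.65 and 11.03 in valeric acid arrays, against 10.04, 10.53 and 10.96 in vehicle arrays (change -0.00 ± 0.24). The transcriptional regulators Cited2 (-1.56 ± 0.08) and Klf6 (-1.29 ± 0.11) were lower. Of 16 deacetylase genes, 6 rose and 2 fell. The mitochondrial sirtuin Sirt3 had 8.39, 8.84 and 9.05 in valeric acid arrays, against 6.58, 6.74 and 6.95 in vehicle arrays (2.06 ± 0.11), and Hdac11 (1.09), Sirt7 (1.06), Hdac3 (0.85), Hdac1 (0.84) and Hdac5 (0.78) were also higher. Hdac7 (-1.36 ± 0.14) and Hdac10 (-0.82) were lower, and Hdac2, at -0.14, was not called.

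Of 13 genes for acetyltransferases, acetyl-lysine readers and corepressors, 5 were lower and 1 was higher (median -0.32). Kat2b (PCAF) had the largest change, with 7.17, 7.55 and 8.21 in valeric acid arrays, against 9.72, 9.85 and 9.87 in vehicle arrays (-2.18 ± 0.12). The coactivator acetyltransferases Crebbp (-1.08) and Ep300 (-0.93) and the acetyltransferases Kat5 (-0.87) and Kat2a (-0.77) were lower with it. The bromodomain reader Brd2 was higher at 0.60, a call that was lost without replicate 1. Among 7 linker and variant histone genes, 3 were higher and none lower. H1f10 had 7.93, 8.89 and 9.12 in valeric acid arrays, against 5.86, 6.07 and 6.28 in vehicle arrays (2.66 ± 0.14). H1f2 had 11.95, 12.25 and 12.84 in valeric acid arrays, against 9.59, 9.99 and 10.35 in vehicle arrays (2.32 ± 0.14). Both linker histone genes were separate between the groups in every array. H1f4 was higher by 0.87.

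Of 20 neuronal genes, 5 were higher and none lower, beside 13.7% higher over all genes, led by Tubb3 (1.72, with a second, dimmer probe set at -0.02), the neurofilament subunit Nefm (1.64 ± 0.18) and the microtubule protein tau, Mapt (1.20 ± 0.09), followed by Eno2 (0.91) and Nefh (0.83). The signals of Nefm were 4.55, 5.27 and 6.02 in valeric acid arrays, against 3.58, 3.63 and 3.82 in vehicle arrays. The other 15 lay between -0.05 and 0.43, among them Syp (-0.01) and Snap25 (-0.02), which encode synaptic vesicle and fusion proteins. None of the 11 germ cell genes was called, with changes from -0.10 to 0.26.

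For the handling of the acid itself, 3 of 6 carrier and receptor genes were lower and none was higher. These were the monocarboxylate carriers Slc16a3 (-0.94 ± 0.16) and Slc16a7 (-0.77 ± 0.08) and the organic anion carrier Slc22a7 (-0.70), whose call was lost without replicate 1. Slc16a1, a widely expressed monocarboxylate carrier, was at 0.10 and not called. Of 17 genes of acyl-CoA activation and short-chain oxidation, 2 were higher and 4 lower, with a median of 0.07. The shares over all genes were 13.7% higher and 14.7% lower. Acss2, which makes acetyl-CoA from acetate in the cytosol, had 9.33, 9.86 and 10.43 in valeric acid arrays, against 8.32, 8.55 and 8.71 in vehicle arrays (1.35 ± 0.14), and the mitochondrial thiolase Acat1 rose by 1.11. The lower members were medium-chain acyl-CoA synthetases of liver, Acsm5 (-0.80), Acsm1 (-0.86) and Acsm2 (-1.17), and Acss3 (-0.62). Without replicate 1, and likewise without replicate 3, 2 of these 4 were called. The short-chain acyl-CoA dehydrogenase Acads (-0.14) and the hydratase Echs1 (0.07) were not called.

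Of 11 genes of the propionyl-CoA and cobalamin route, 5 were higher and 1 lower, with a median of 0.58. Cd320, the receptor that takes up cobalamin, had 6.91, 7.07 and 7.36 in valeric acid arrays, against 5.64, 5.97 and 6.01 in vehicle arrays (1.18 ± 0.09). Pcca, a subunit of propionyl-CoA carboxylase (0.71), Mmaa (0.68), the epimerase Mcee (0.62) and methylmalonyl-CoA mutase, Mmut (0.60), were higher by smaller amounts, and 3 of the 5 were called without vehicle replicate 3 at 1 d. Hlcs, which attaches biotin to the carboxylase, was lower (-1.02 ± 0.10), and the other carboxylase subunit Pccb, at -0.58, was not called. In branched-chain amino acid catabolism, which also yields propionyl-CoA, 5 of 14 genes were higher and 1 lower. Dbt, the core of the branched-chain keto acid dehydrogenase, had 9.78, 9.93 and 10.19 in valeric acid arrays, against 8.29, 8.51 and 8.73 in vehicle arrays (1.46 ± 0.07). Auh (0.92) and Mccc1 (0.92), of leucine breakdown, were higher, and Acad8, of valine breakdown, was lower (-0.91). Bckdhb (1.16) and Bcat2 (0.70) were higher with overlapping groups. Bckdhb lost its call without replicate 1 (1.12) and Bcat2 without replicate 3 (0.65).

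Of 12 genes of acyl transfer to carnitine and glycine, 4 were higher and 3 lower, beside 13.7% and 14.7% over all genes. The carnitine carrier Slc22a5 (1.11 ± 0.08) and the carnitine palmitoyltransferases Cpt1a (1.04 ± 0.09) and Cpt2 (0.63) were higher. Glyat, which joins acyl groups to glycine, had 3.95, 4.35 and 4.65 in valeric acid arrays, against 5.36, 5.87 and 6.13 in vehicle arrays (-1.50 ± 0.12). It was lower in every treated array, as was the acetyl-CoA hydrolase Acot12 (-1.51 ± 0.14). Of 9 long-chain oxidation genes, 4 rose, the acyl-CoA synthetase Acsl1 (1.30 ± 0.10) and the trifunctional protein subunits Hadha (1.07) and Hadhb (0.90) with the isomerase Eci2 (0.92), and 3 fell, among them the dehydrogenases Acadvl (-0.68) and Acadl (-0.73).

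Target genes of PPARa, the nuclear receptor for fatty acids in liver, were among the largest changes. Of 12 measured, 7 were higher and 2 lower, with a median of 1.02. Fgf21, the fasting hormone of liver, had 8.84, 9.28 and 9.72 in valeric acid arrays, against 5.75, 6.23 and 6.51 in vehicle arrays (3.14 ± 0.12). Ehhadh, the bifunctional enzyme of peroxisomal oxidation, had 8.61, 8.97 and 9.27 in valeric acid arrays, against 5.46, 6.21 and 6.80 in vehicle arrays (2.80 ± 0.21). Angptl4, an inhibitor of lipoprotein lipase, had 11.23, 11.67 and 12.19 in valeric acid arrays, against 8.91, 9.30 and 9.87 in vehicle arrays (2.45 ± 0.19). With Pdk4, these 3 genes were separate between the groups in all 12 arrays. Pex11a (1.68), Acot1 (1.20) and Plin2 (0.60, with a second, dimmer probe set at -0.43) completed the higher members. The classical peroxisome proliferator genes Cyp4a1 (0.71) and Cyp4a3 (0.83) were not called. Vnn1, the pantetheinase of liver, was lower, with 5.07, 5.55 and 6.28 in valeric acid arrays, against 7.43, 8.00 and 8.38 in vehicle arrays (-2.42 ± 0.21), as was Hsd17b4 (-0.83). Ppara itself was higher (0.86 ± 0.14).

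In the citric acid cycle and its entry, 3 of 15 genes were higher and 2 lower (median -0.03). These counts are near the shares over all genes, 13.7% higher and 14.7% lower. The pyruvate dehydrogenase subunit Pdhb had 10.92, 10.99 and 11.11 in valeric acid arrays, against 9.64, 9.71 and 9.73 in vehicle arrays (1.30 ± 0.05), while the other subunit of the same enzyme, Pdha1, was lower (-0.79 ± 0.08). Ogdh, of the oxoglutarate dehydrogenase complex, had 7.45, 8.02 and 8.36 in valeric acid arrays, against 9.43, 9.67 and 9.80 in vehicle arrays (-1.65 ± 0.14). Citrate synthase, Cs (0.90), and Mdh2 (0.68) were higher. Of 18 glycolysis and hypoxia genes, 5 were higher and 2 lower, and the higher ones were small changes, from Bnip3 (0.59) to Hk2 (0.89), of which 1 was called without replicate 3. Pfkl, the liver phosphofructokinase, was lower (-1.74 ± 0.11) and Ldha was at -0.18. Among 10 gluconeogenic and glucose genes, the coactivator Ppargc1a (2.08 ± 0.13), pyruvate carboxylase, Pc (1.32 ± 0.11), and Fbp1 (1.29 ± 0.11) were higher. Slc2a2, the glucose carrier of hepatocytes, had 8.38, 8.98 and 10.22 in valeric acid arrays, against 11.10, 11.36 and 11.53 in vehicle arrays (-2.14 ± 0.22), with no overlap. Pck1 (0.68) was not called. Of the 3 genes of ketone body metabolism measured, Bdh1 was lower (-1.90 ± 0.23) and Oxct1, known from tissues that use ketone bodies, was higher (1.49 ± 0.36), a call that was lost without replicate 1.

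Cholesterol synthesis was the list with the highest share of higher members. Of 16 genes, 11 were higher and 1 lower (median 0.74). Hsd17b7 had 8.56, 8.73 and 8.79 in valeric acid arrays, against 6.57, 6.72 and 7.00 in vehicle arrays (1.97 ± 0.07). Insig1, the sterol-regulated anchor of the SREBP pathway, had 12.83, 12.91 and 13.04 in valeric acid arrays, against 10.99, 11.39 and 11.89 in vehicle arrays (1.53 ± 0.09). Mvd had 7.78, 7.92 and 8.21 in valeric acid arrays, against 6.46, 6.70 and 6.78 in vehicle arrays (1.28 ± 0.08). Dhcr7 (1.20) and the squalene synthase Fdft1 (1.13) were next, and Sc5d, Cyp51, Pmvk, Mvk, Msmo1 and Lss lay between 0.66 and 0.84. Nsdhl was lower (-0.75 ± 0.07), while Sqle (0.46), Fdps (0.30), Idi1 (-0.07) and the transcription factor Srebf2 (-0.47) were not called. Of 16 genes of fatty acid synthesis, 5 were higher and 3 lower. Dgat2, of triglyceride synthesis (1.43 ± 0.07), the elongase Elovl5 (1.34 ± 0.06) and the transcription factor Srebf1 (1.13 ± 0.09) were higher. Fasn, the fatty acid synthase, had 7.06, 7.57 and 8.16 in valeric acid arrays, against 8.59, 8.79 and 8.92 in vehicle arrays (-1.19 ± 0.14), and Me1 was lower by -0.88. Acly (0.52) and Acaca (0.54) were not called.

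In the lists of proteins that hepatocytes secrete, members were lower or not called and none was higher. Over all genes 13.7% were higher and 14.7% lower, and not every one of these lists exceeded the lower share. Of 13 complement genes, 8 were lower and none higher, all 13 changes were negative, and the median was -0.79. The mannose-binding lectin Mbl2 had 7.87, 8.26 and 8.85 in valeric acid arrays, against 10.57, 10.86 and 11.01 in vehicle arrays (-2.51 ± 0.15). C5 had 6.75, 7.26 and 7.99 in valeric acid arrays, against 8.46, 9.32 and 10.66 in vehicle arrays (-2.08 ± 0.36). Mbl1 (-1.34), Masp1 (-1.32), C8a (-1.30), C1s (-0.92), C1r (-0.79) and Cfi (-0.63) were the other lower members, and C3, the most central component, was at -0.34 and not called. Of 15 coagulation genes, 3 were lower and none higher, a count of 6 without replicate 3. Clotting factor F5 had 6.91, 7.31 and 8.23 in valeric acid arrays, against 9.95, 10.17 and 10.49 in vehicle arrays (-2.76 ± 0.21). Fibrinogen chains Fga (-0.02), Fgb (0.26) and Fgg (0.33) were not called.

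Among 15 genes of apolipoproteins and lipoprotein assembly, 4 were lower and none higher. Apob, the structural protein of very low density lipoprotein, had 9.85, 10.29 and 10.34 in valeric acid arrays, against 12.29, 12.44 and 12.60 in vehicle arrays (-2.24 ± 0.09, 4.73-fold lower). Its partner in assembly, the transfer protein Mttp, had 7.33, 7.64 and 8.32 in valeric acid arrays, against 9.09, 9.26 and 9.57 in vehicle arrays (-1.56 ± 0.16), and Apoa5 (-1.64 ± 0.14) and Lcat (-0.81) were also lower. In all 4 genes the highest treated array lay below the lowest vehicle array. The other 11, with Apoa1 (-0.18) and Apoe (0.06), lay between -0.18 and 0.25. Of 17 acute phase and carrier protein genes, 1 was lower, Cp (-0.65), whose groups overlapped and whose call was lost without replicate 1. Albumin, Alb, had 14.30, 14.36 and 14.39 in valeric acid arrays, against 14.29, 14.33 and 14.37 in vehicle arrays (change 0.02).

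Of 13 bile acid genes, 3 were lower and none higher, a count of 5 without replicate 3. Over all genes 14.7% were lower and 13.7% higher. Baat, which joins bile acids to amino acids, had 7.56, 7.94 and 8.61 in valeric acid arrays, against 9.55, 9.74 and 10.16 in vehicle arrays (-1.76 ± 0.16). Abcb11, the bile salt export pump (-1.23 ± 0.17), and Cyp27a1 (-0.77) were lower, and Cyp7a1, the first enzyme of the main synthetic route, was at 0.04 and not called. Among 14 P450 genes and their reductase, Cyp1a1 (-2.45 ± 0.37) and Cyp2c12 (-2.29 ± 0.33) were lower. The reductase Por averaged 11.17 ± 0.11 in valeric acid arrays and 9.62 ± 0.14 in vehicle arrays (SD, n = 6 each), a change of 1.55 ± 0.08, with no overlap between the groups. Cyp3a2 (0.64) and Cyp2e1 (0.84) were higher with overlapping groups, and neither was called without replicate 1. Of 14 liver transcription factor genes, 5 were lower and 1, Ppara, was higher. Cebpd (-1.42 ± 0.20), the xenobiotic receptor Nr1i2 (-1.03), Foxa3 (-0.98), Foxa2 (-0.77) and Nr5a2 (-0.73) were the lower members, and Hnf4a, at -0.35, was not called. In urea synthesis and amino acid breakdown, 2 of 15 genes were higher, Got1 (1.94 ± 0.09) and Tat (1.05), and 4 were lower, 2 without replicate 1, led by the histidine ammonia lyase Hal, with 5.21, 5.81 and 6.66 in valeric acid arrays, against 7.07, 7.96 and 8.55 in vehicle arrays (-2.02 ± 0.26).

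Genes of the integrated stress response, in which ATF4 and CHOP raise amino acid and survival genes, were more often higher than lower. Of 20, 11 were higher and 2 lower, with a median of 0.66. After Ddit3, Gdf15 had 9.07, 10.06 and 10.76 in valeric acid arrays, against 6.05, 6.46 and 6.83 in vehicle arrays (3.51 ± 0.24). Atf3 had 12.04, 12.15 and 12.30 in valeric acid arrays, against 8.97, 9.39 and 9.75 in vehicle arrays (2.76 ± 0.10). In all 3 the lowest treated array exceeded the highest vehicle array. Sesn2 (1.54), Ddit4 (1.18) and Chac1 (1.11) followed, and Mthfd2, Trib3, Nupr1, Asns and Psat1 lay between 0.66 and 0.70. Slc7a11 (-0.80) and Vldlr (-0.79) were lower with overlapping groups. The mRNA of Atf4 itself, a factor controlled mainly in translation, was at 0.19 and not called.

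Endoplasmic reticulum chaperone genes were higher by smaller amounts, 8 of 17 higher and 1 lower (median 0.58). Hspa5 (BiP), the main chaperone of the compartment, had 12.90, 13.05 and 13.19 in valeric acid arrays, against 11.84, 12.04 and 12.30 in vehicle arrays (1.00 ± 0.08). Herpud1 had 10.09, 10.37 and 10.69 in valeric acid arrays, against 8.97, 9.29 and 9.62 in vehicle arrays (1.11 ± 0.09). Manf (0.88), Dnajb9 (0.80), Sdf2l1 (0.76), Edem1 (0.75), Pdia4 (0.69) and Hsp90b1 (0.64) were the other higher members, the last of which fell below the fold bound without valeric acid replicate 1 at 0.67 d (0.58). Xbp1, a transcription factor of the same response, was lower (-0.93 ± 0.07).

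Promoters of 4 higher genes are shown because their classes carry known short elements. The windows run from 250 bases before to 50 after the gene's start and come from RefSeq (build GRCr8), printed along the gene's strand, with matches to the named element on either strand in capitals. The searches covered 27457 promoters of the same length. For Hspa5 (chr3:38452766-38453065, + strand) the capitals mark the endoplasmic reticulum stress element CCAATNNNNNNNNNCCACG, from 43 to 25 bases before the start.
Hspa5: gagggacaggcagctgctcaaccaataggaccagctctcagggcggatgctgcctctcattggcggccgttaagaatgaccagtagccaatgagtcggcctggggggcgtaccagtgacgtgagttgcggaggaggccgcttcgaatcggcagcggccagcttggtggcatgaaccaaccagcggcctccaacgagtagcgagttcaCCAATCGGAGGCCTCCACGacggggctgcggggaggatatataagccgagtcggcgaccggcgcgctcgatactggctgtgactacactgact
For Fgf21 (chr1:105221327-105221626, - strand) the capitals mark the ATF4 composite element TGATGNAA, found on the opposite strand.
Fgf21: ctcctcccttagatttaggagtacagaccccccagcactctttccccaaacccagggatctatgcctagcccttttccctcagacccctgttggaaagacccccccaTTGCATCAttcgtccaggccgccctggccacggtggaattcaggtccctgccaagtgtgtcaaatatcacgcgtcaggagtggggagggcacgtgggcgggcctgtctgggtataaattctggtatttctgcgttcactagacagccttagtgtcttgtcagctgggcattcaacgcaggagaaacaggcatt
For Mcm6 (chr13:42404303-42404602, - strand) the capitals mark 2 overlapping matches, 1 on each strand, to the E2F element, searched as TTTCGCGC, TTTGGCGC or TTTCCCGC.
Mcm6: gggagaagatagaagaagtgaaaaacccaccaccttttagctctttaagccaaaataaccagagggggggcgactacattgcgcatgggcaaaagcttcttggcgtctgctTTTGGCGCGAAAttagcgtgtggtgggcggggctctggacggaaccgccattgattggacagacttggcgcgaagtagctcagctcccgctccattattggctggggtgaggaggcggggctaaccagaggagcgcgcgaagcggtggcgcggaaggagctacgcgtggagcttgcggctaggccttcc
For Mt2A (chr19:10838659-10838958, - strand) the capitals mark 4 matches to the core of the metal response element, searched as TGCACNC or TGCGCNC.
Mt2A: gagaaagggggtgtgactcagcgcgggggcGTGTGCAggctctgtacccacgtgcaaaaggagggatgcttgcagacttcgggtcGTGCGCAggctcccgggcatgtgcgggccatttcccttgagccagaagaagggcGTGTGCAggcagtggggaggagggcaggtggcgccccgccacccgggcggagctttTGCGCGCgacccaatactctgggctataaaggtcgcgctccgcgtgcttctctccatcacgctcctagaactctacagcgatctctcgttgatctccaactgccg

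The stress element in the Hspa5 window was present in 21 of the 27457 promoters (0.0765%) and in 7 of the 14 chaperone list members with a promoter in the table. Of those 7, Hspa5 and Hsp90b1 were higher, Xbp1 was lower, and Calr, Canx, Dnajc3 and Creld2 were not called. The ATF4 element was in 1048 promoters (3.82%) and in 4 of 19 members of the stress list, the higher genes Trib3, Chac1 and Nupr1 and the uncalled Slc7a1. The E2F element was in 501 promoters (1.82%) and in 7 of 17 members of the replication list, of which Cdk1 and Mcm6 were higher, Tyms was lower, and Mcm2, Mcm3, Mcm5 and Mcm7 were not called. The short metal response core was in 6864 promoters (25%) and in all 3 metal genes with a promoter, Mt2A, Slc30a1 and Mt1. A match describes the letters of the window and is no evidence of binding in these cells.

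Other stress classes were split, beside 13.7% higher and 14.7% lower over all genes. Of 5 metallothionein and metal carrier genes, 2 were higher and 1 lower. The metallothionein Mt2A, which binds zinc and copper, had 12.73, 13.30 and 13.51 in valeric acid arrays, against 9.69, 11.09 and 11.40 in vehicle arrays (2.26 ± 0.24), and the zinc exporter Slc30a1 was higher (0.81), while the other metallothionein measured, Mt1, was at 0.13 and not called. The zinc importer Slc39a4 was lower (-0.59) with overlapping groups, a call that was lost without replicate 1 and likewise without replicate 2. Of 11 heat shock genes, Hspa1a was higher, with 10.79, 11.24 and 11.38 in valeric acid arrays, against 7.98, 9.03 and 9.89 in vehicle arrays (2.26 ± 0.27), Bag3 was lower (-0.65), and Dnajb1 (0.34) and Hspb1 (-0.31) were not called. Of 15 genes of the NRF2 antioxidant response, 1 was higher, Srxn1 (1.13 ± 0.11), and 6 were lower, with a median of -0.44. Gsta3 (-1.53 ± 0.22), Ugdh (-1.28), the efflux pump Abcc3 (-1.20) and Nqo1 (-1.04) were lower, and Hmox1 (-0.02) was not called. Among 15 p53 targets 3 were higher, Sesn1 (1.93 ± 0.17), Tp53inp1 (1.80 ± 0.11) and Sesn2, and 3 were lower, Phlda3 (-1.43 ± 0.08), Ccng1 (-0.97) and Fas (-0.91), while Mdm2 was at -0.34. Of 10 osmotic and pH response genes, the inositol carrier Slc5a3 (1.60 ± 0.12) and the kinase Sgk1 (0.90) were higher, the amino acid carrier Slc38a2 (-0.80) and carbonic anhydrase Car2 (-0.98) were lower, and Nfat5, the osmotic transcription factor, was at 0.19.

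Genes of DNA replication and mitosis were higher in 10 of 22 and lower in 2 (median 0.47). Cyclins E, which drive entry into S phase, led the list, Ccne2 with 6.43, 7.01 and 7.16 in valeric acid arrays, against 4.28, 4.44 and 4.57 in vehicle arrays (2.45 ± 0.12) and Ccne1 with 8.14, 8.40 and 9.04 in valeric acid arrays, against 6.29, 6.50 and 6.58 in vehicle arrays (2.02 ± 0.13). The replicative helicase subunit Mcm6 had 7.83, 8.17 and 8.31 in valeric acid arrays, against 6.27, 6.32 and 6.50 in vehicle arrays (1.79 ± 0.08). Each of these 3 was separate in all arrays. Mcm4 (1.35), Top2a (1.33), Bub1 (1.22), Ccnb1 (1.18), Cdk1 (1.05), Pcna (0.85) and Aurka (0.78) were higher. Cyclin D1, Ccnd1 (-1.27 ± 0.18), and thymidylate synthase, Tyms (-1.74 ± 0.12), were lower, and the proliferation marker Mki67 was at 0.08 and not called, with 3.40, 3.57 and 4.00 in valeric acid arrays, against 3.27, 3.60 and 3.80 in vehicle arrays.

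Immediate early genes were divided, 4 of 16 higher and 4 lower, beside 13.7% and 14.7% over all genes. Egr1 had 10.69, 10.88 and 11.08 in valeric acid arrays, against 8.24, 9.34 and 9.73 in vehicle arrays (1.79 ± 0.24), and Junb was higher by 1.24. Myc had 8.20, 8.34 and 8.55 in valeric acid arrays, against 9.68, 10.04 and 10.15 in vehicle arrays (-1.65 ± 0.08), and the Fos relatives Fosl1 (-1.55) and Fosl2 (-1.41) and Ier3 (-1.24) were lower, while Jun (-0.12) was not called. The probe sets of Fos disagreed, at 0.09 for the brighter one in vehicle arrays, which was used and not called, and 1.99 for the other, with no test of its own. Of 17 cytokine and NF-kB genes, 4 were higher and 2 lower. The nuclear inhibitor Nfkbiz had 9.04, 9.76 and 10.46 in valeric acid arrays, against 6.89, 7.71 and 8.17 in vehicle arrays (2.15 ± 0.28), and was the only one of the 4 called without replicate 1. The chemokine Ccl2 had 7.59, 8.21 and 9.53 in valeric acid arrays, against 10.04, 10.44 and 10.74 in vehicle arrays (-2.06 ± 0.27). Of 18 interferon-induced genes, 2 were higher and 6 lower, led by Gbp2 (-2.20 ± 0.24), Mx2 (-1.98 ± 0.19) and Irf7 (-1.11 ± 0.09). These values stand beside the rise of Rsad2, whose signals were 11.42, 12.22 and 12.58 in valeric acid arrays, against 7.42, 8.28 and 9.65 in vehicle arrays.

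In each structural list more of the called members were lower than higher. Of 17 genes of the actin cytoskeleton and its SRF and YAP programmes, 7 were lower and 1 higher (median -0.63). The actin crosslinker Flna had 8.76, 9.17 and 9.96 in valeric acid arrays, against 11.52, 11.78 and 12.19 in vehicle arrays (-2.55 ± 0.19). The tropomyosin gene Tpm1 had 10.26, 10.51 and 10.92 in valeric acid arrays, against 12.05, 12.31 and 12.53 in vehicle arrays (-1.72 ± 0.12). The 7 probe sets of Tpm1 ranged from -1.95 to 0.36, and with the median of its probe sets it was not called. Tagln had the lowest fitted change of the list, -2.83 ± 0.60, with overlapping groups, 6.77 to 9.52 in valeric acid arrays and 9.03 to 12.64 in vehicle arrays, and was not called without replicate 1 (-2.95). Mylk (-1.69), Myl9 (-1.58), Amotl2 (-1.07) and Srf (-0.63) were lower, and the YAP target Ccn1 was higher (0.59). Of 15 matrix and protease inhibitor genes, 8 were lower and 1 higher (median -1.06), 5 lower without replicate 1 and 5 without replicate 3. Lox, which crosslinks collagen (-1.90 ± 0.36), Timp2 (-1.87 ± 0.27), Loxl2 (-1.56) and Fn1 (-1.20) were lower. Timp3 went the other way, with 9.75, 9.99 and 10.20 in valeric acid arrays, against 7.77, 8.53 and 8.91 in vehicle arrays (1.55 ± 0.16). Of 15 keratin and junction genes, 1 was higher, the claudin gene Cldn1 (0.71), and 6 were lower, among them Ocln (-1.10), the hepatocyte keratins Krt8 (-0.93 ± 0.09) and Krt18 (-0.83) and E-cadherin, Cdh1 (-0.84).

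Markers of stellate and sinusoidal endothelial cells had negative changes with few calls, beside 14.7% of all genes called lower. All 10 stellate cell markers measured had negative changes and 3 were called lower, Reln (-1.16), Col3a1 (-1.38) and Rgs5 (-0.65), of which 1 was called without replicate 1 and 1 without replicate 3. Their mean signal was 5.11 (4.87 to 5.45 over arrays) in valeric acid arrays, against 5.66 (5.17 to 6.00) in vehicle arrays. All 8 sinusoidal endothelial markers were negative too, with a mean of 4.97 (4.34 to 5.53) in valeric acid arrays, against 5.71 (4.76 to 6.39) in vehicle arrays, and the 2 called lower, Fcgr2b (-2.43) and Tek (-0.77), were not called without replicate 1. Their part in the lower matrix and actin genes was not tested, and fewer cells of a type and less RNA per cell cannot be told apart. Of the stellate cell markers, Acta2, Col1a1 and Col3a1 are also members of the actin or matrix lists. No Kupffer cell marker (0 of 9) and no lymphocyte marker (0 of 8) was called, and 1 of 8 cholangiocyte markers, Prom1, was higher (0.79), a call that was lost without replicate 1.

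Of the 154 called genes named here by rule, 49 had several probe sets, and in 20 of these another probe set differed by over 1 on the log2 scale from the one used, which was the brightest over the arrays. In 6 a probe set had the opposite sign, at -0.00 for Acsl1, -0.22 for Ccne2, 0.01 for Cdh1, 0.06 for Cebpd, 0.36 for Tpm1 and -0.02 for Tubb3. Called genes named outside the rule are not in these counts. Among them a probe set of opposite sign was seen for Plin2 (-0.43), Srxn1 (-0.02) and Hdac10 (0.00). The second probe set of Apob was at -0.10, that of Nfkbiz at 0.03, that of Mx2 at -0.10, that of Timp2 at -0.27 and that of Slc5a3 at 0.05. Among the largest changes, the second probe set kept the direction with a smaller change, 1.07 for Apc2, 1.42 for Rab40b, 2.31 for Rps6ka5, -1.28 for Mmp14, -1.07 for Cyp26b1 and -2.10 for Popdc2.

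The 2 exposure times gave similar sets. Fitted alone, the 0.67 d arrays gave 1703 higher and 1693 lower genes and the 1 d arrays 1994 higher and 2110 lower, of which 2995 were called the same way at both times and 0 in opposite ways. All 4039 genes called over both times had the same sign at each. The call rests on both times together, so equal signs are largely set by it and are no separate support. The changes of the 12 largest higher genes were larger at 1 d in all 12, and those of the 12 largest lower genes in 11, with Cyp26b1 as the exception (-3.55 at 0.67 d and -2.84 at 1 d). Pdk4 changed by 4.80 at 0.67 d and 5.97 at 1 d, and Txnip by 3.45 and 4.16. In the test of the difference itself, the interaction of treatment and time in limma, 0 of 14218 genes (0%) passed, 1326 had an unadjusted p under 0.05 (1354 in the ordinary test per gene), and the smallest adjusted p was 0.0634.

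With the replicate number as a block, which compares arrays of the same number, 6 genes passed the interaction test (adjusted p = 0.00757 for each). None passed when the block was the replicate number within time, chosen after seeing the data (1936 genes at an unadjusted p under 0.05), the hybridization day (1576) or the extraction day (1570). Cyp2c12, a P450 known for its higher level in female rat liver, had at 0.67 d signals of 7.61, 7.81 and 7.13 in valeric acid arrays, against 9.25, 8.76 and 8.40 in vehicle arrays. At 1 d its signals were 6.78, 6.87 and 6.36 in valeric acid arrays, against 10.50, 9.68 and 9.69 in vehicle arrays. At the later time the treated values were lower and the vehicle values higher, and the changes were -1.29 at 0.67 d and -3.29 at 1 d. Slco1b2, the organic anion carrier of the hepatocyte surface, had 7.30, 7.68 and 5.88 in valeric acid arrays, against 7.84, 8.13 and 6.75 in vehicle arrays at 0.67 d. At 1 d it had 6.30, 6.74 and 5.16 in valeric acid arrays, against 8.71, 8.58 and 7.58 in vehicle arrays. Replicate 3 was the lowest of each of these 4 sets of Slco1b2 values. Acot2, a mitochondrial acyl-CoA thioesterase, showed the opposite order, with 8.23, 8.03 and 8.18 in valeric acid arrays, against 9.58, 9.21 and 9.35 in vehicle arrays at 0.67 d. At 1 d the thioesterase had 9.25, 8.67 and 9.12 in valeric acid arrays, against 9.13, 8.96 and 9.08 in vehicle arrays, so that its groups were close at the later time only. The others were Anxa3, Psca and Serpina7. Without the block none of the 6 passed, with adjusted p from 0.0915 for Acot2 to 0.55 for Slco1b2.

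**Figure D3:**
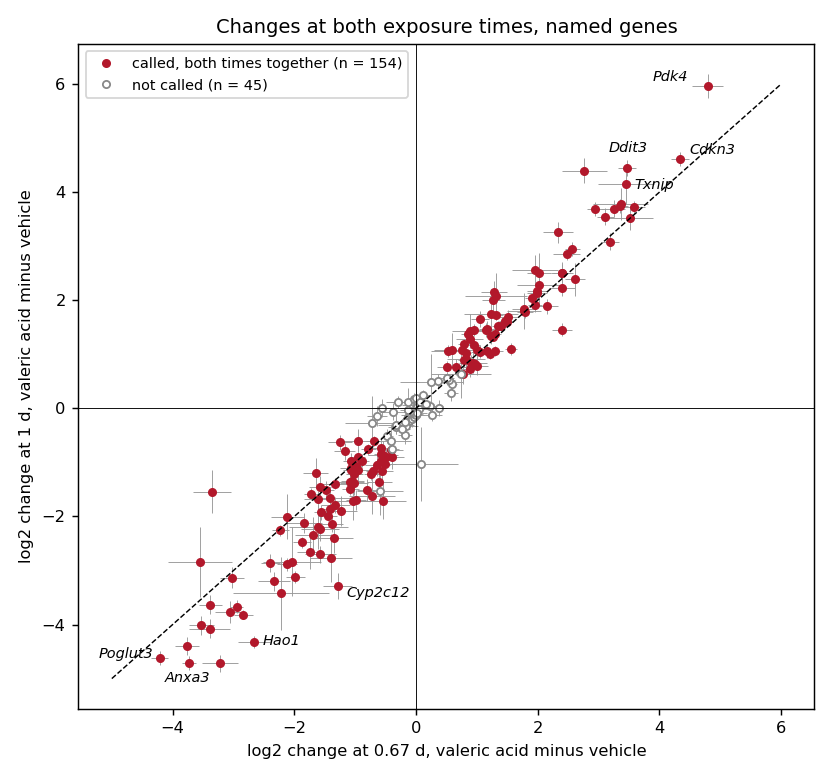
Log2 change after valeric acid at 0.67 d (horizontal) and at 1 d (vertical) for the 154 called (red) and 45 uncalled (open) named genes, with SE bars and the line of equal change dashed. All 154 called genes have the same sign at both times, which the call over both times largely sets. Pdk4 lies at 4.80 and 5.97 and Cyp2c12 below the line at -1.29 and -3.29.

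The 11 other compounds that share these controls were applied in the same campaign, and a contrast among the 72 treated arrays of the 12 compounds sets valeric acid against their mean with no control array in the fit. It called 3798 of 14218 genes (26.7%), 1936 higher (13.6%) and 1862 lower (13.1%) with valeric acid than with the mean of the 11. All 12 of the largest higher genes and all 12 of the largest lower genes were called in the same direction. They were picked for their values in the same valeric acid arrays, so that count is largely set by the choice and is no separate support. Cdkn3 stood 4.33 ± 0.10 above the other compounds, Rab40b 4.11 ± 0.28, Txnip 4.08 ± 0.26 and Pdk4 4.07 ± 0.16, and Anxa3 differed by -4.22 ± 0.10, Poglut3 by -4.17 ± 0.09 and Mmp14 by -3.61 ± 0.14. Among the 8 largest were also Ehhadh (3.44) and Map2k6, a kinase upstream of p38 (3.38), above, and Ampd3, an AMP deaminase (-3.39), and the RNA-binding protein gene Sfpq (-3.05), below. Cholesterol synthesis (10 of 16 above, 0 below), PPARa targets (9 of 12 above, 1 below), neuronal genes (5 of 20 above) and matrix genes (8 of 15 below) were called in this contrast. Complement genes were below the other compounds in 2 of 13, and none was above. Of the 20 ATF4 and CHOP stress genes 5 were above and 4 below their mean. Several lists stood otherwise here than against vehicle. Of 17 chaperone genes 2 were above and 1 below, beside 8 higher and 1 lower against vehicle, and of 18 glycolysis and hypoxia genes 1 was above and 2 below, beside 5 and 2. Coagulation genes were above in 4 of 15 and below in 2, beside 0 higher and 3 lower against vehicle. Acyl-CoA activation genes were above in 5 of 17 and below in none, and urea and amino acid genes above in 5 of 15 and below in 1, where each list had 2 higher and 4 lower against vehicle. Ddit3 was still 2.78 ± 0.13 above that mean.

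The ranking took in 128 compound and dose combinations, each set against its own vehicle arrays, and left out some campaigns of the series. Campaigns left out held further doses of several compounds. Valeric acid had the highest change in 1223 and the lowest in 1113 of 14218 genes. These ranks are a description, since doses, culture sets and controls differ. Among the 12 largest higher genes it ranked first in 8, and Cdkn3 was far from the rest, with 4.48 after valeric acid and 0.93 after cisplatin, the next highest. Arg2 changed by 3.55 after valeric acid and 1.04 after idarubicin, and Apc2 by 3.47 after valeric acid and 0.99 after valproic acid. Pdk4 was exceeded by 3 combinations, up to 5.73 for simvastatin, Ddit3 by 1 (4.00 for valdecoxib) and Gdf15 by 1 (5.10 for pantoprazole). Of the 12 largest lower genes 6 were lowest with valeric acid. For Poglut3 the next lowest change was -2.68, after sporidesmin A, and for Anxa3 it was -1.84, after valproic acid, whereas Tm4sf4 was lower still in 8 combinations and Gna14 in 19. Where valeric acid had the highest change, the next combination was most often valproic acid (237 of 1223 genes, 19.4%), then valdecoxib (67 genes, 5.48%). Where it had the lowest, valproic acid was next in 153 of 1113 genes (13.7%) and sporidesmin A in 147 (13.2%). How often these combinations are extreme over all genes was not counted, so the shares do not measure likeness between compounds.

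**Figure D4:**
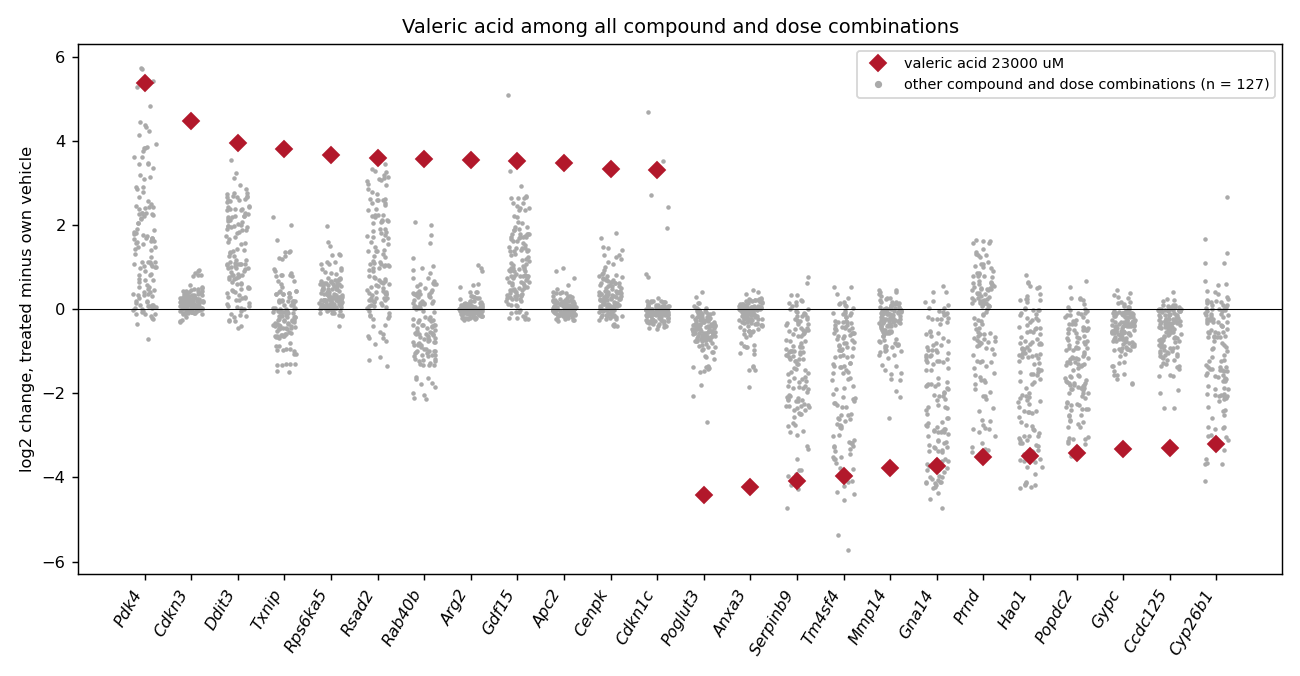
Log2 change of the 24 genes with the largest changes after valeric acid (red diamonds), each compound against its own vehicle arrays. Grey points are the other 127 compound and dose combinations ranked. Cdkn3 (4.48) and Poglut3 (-4.42) lie apart from all grey points, while Pdk4 and Gna14 lie within them.

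Valproic acid was applied at 1000 uM, with 6 arrays and its own 12 vehicle arrays, so the acids are set side by side and the difference between them was not tested. Its comparison called 1212 genes (8.52%), 788 higher (5.54%) and 424 lower (2.98%). Fitted by time, valproic acid called 1326 genes from the 0.67 d arrays alone and 572 from the 1 d arrays alone, while valeric acid called 3396 at 0.67 d and 4104 at 1 d. Of the 1947 genes higher after valeric acid, 442 (22.7%) were higher after valproic acid, which is 56.1% of the 788. Of the 2092 lower, 329 (15.7%) were lower after valproic acid, which is 77.6% of the 424. There were 6 genes higher with valeric and lower with valproic acid and 37 with the reverse pattern. In PPARa targets, 7 of 12 were higher after valeric acid (median 1.02) and 12 of 12 after valproic acid (median 2.83). Pdk4 changed by 5.38 after valeric acid and 4.84 ± 0.26 after valproic acid, and Ehhadh by 2.80 after valeric acid and 4.97 ± 0.22 after valproic acid. Cyp4a1 was at 0.71 after valeric acid (not called) and 3.32 ± 0.33 after valproic acid, and Vnn1 at -2.42 after valeric acid and 1.18 ± 0.23 after valproic acid. The stress genes stood otherwise. Of 20 ATF4 and CHOP genes 11 were higher after valeric acid and 1 after valproic acid, with Ddit3 at 3.96 after valeric acid and -0.25 after valproic acid (not called). Gdf15 was at 3.51 after valeric acid and -0.20 after valproic acid (not called). Among 17 chaperone genes 8 were higher after valeric acid and 0 after valproic acid, with Hspa5 at 1.00 after valeric acid and -0.10 after valproic acid (not called). In cholesterol synthesis 11 of 16 genes were higher after valeric acid and 5 of 16 after valproic acid, and Cdkn3 was higher after both, by 4.48 after valeric acid and 0.85 ± 0.17 after valproic acid. Rab40b was at 3.57 after valeric acid and 2.08 ± 0.42 after valproic acid. Of the 12 largest higher genes of valeric acid, 9 were called in the valproic acid comparison, and of the 12 largest lower genes 8. These counts take calls in either direction.

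**Figure D5:**
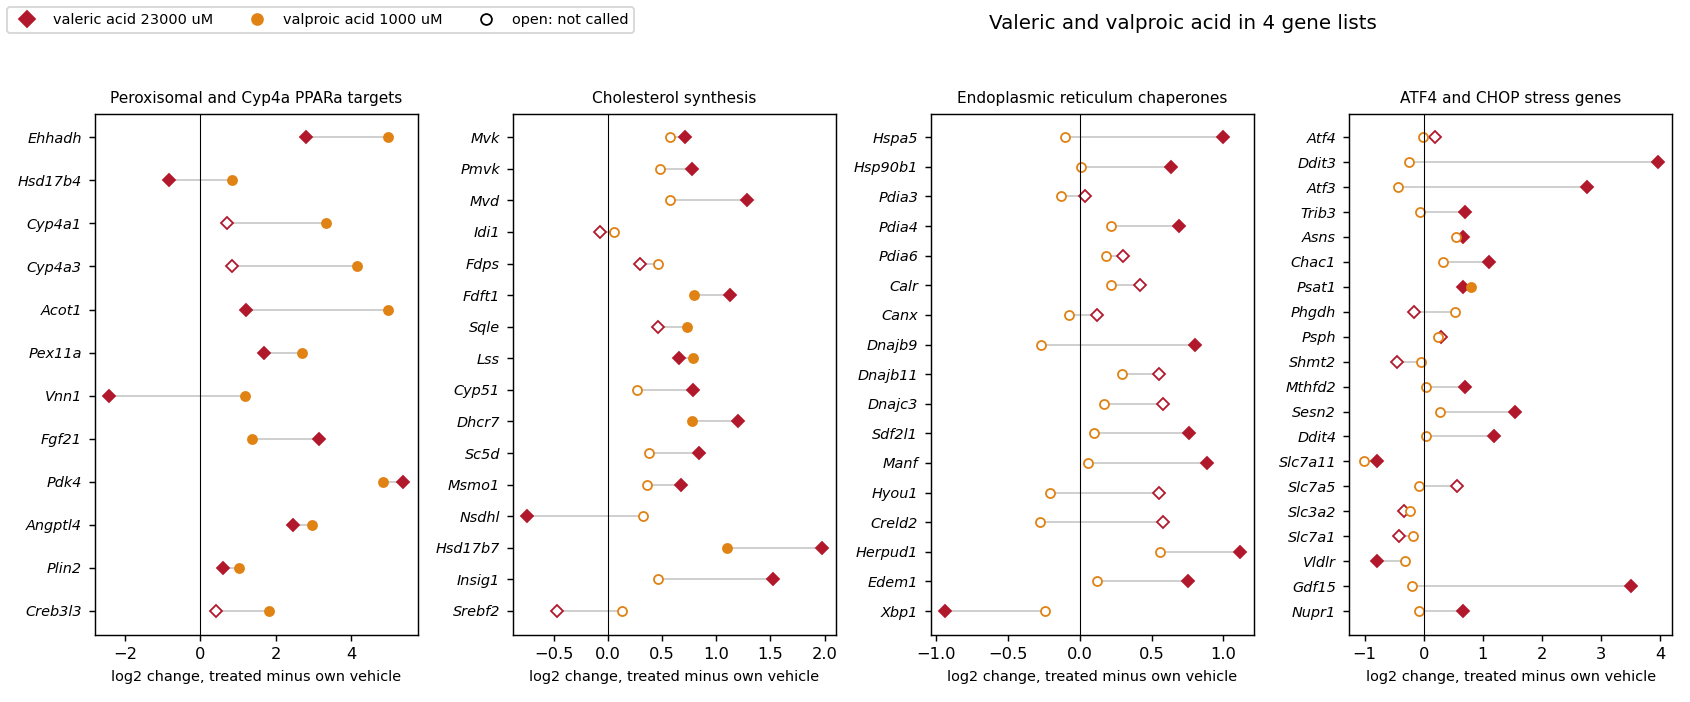
Log2 change of each member of 4 gene lists after valeric acid at 23000 uM (red diamonds) and valproic acid at 1000 uM (orange circles), each against its own vehicle arrays, with open symbols for genes that were not called. Ehhadh lies at 2.80 after valeric acid and 4.97 after valproic acid, and Ddit3 at 3.96 after valeric acid and -0.25 after valproic acid.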

How the data were processed

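The deposited values are log2 signals per probe set of an Affymetrix whole-genome rat array, which the authors normalised over the series. The submitters' processing notes name RMA, with no version, and the methods of the study name its frozen form, so the exact variant is not settled here. Normalisation of this kind sets arrays to a common distribution, and a change shared by most transcripts cannot be seen in it. The table held 31099 probe sets and 939 arrays. Symbols came from the platform annotation, where 20832 probe sets had 1 symbol, 436 several and 9831 none, and 20764 of the first were matched to RefSeq genes of GRCr8 for current names. Of 4526 genes with several probe sets the one with the highest mean signal was kept, which gave 14218 genes.

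Treated and matched vehicle arrays were compared with limma (version 3.58.1, R 4.3.3) with exposure time as a factor, and p-values were adjusted over all 14218 genes. The interaction with time, the contrast with the 11 other compounds and the valproic acid comparison were fitted the same way, and the fits were tested on simulated data. The number of arrays limits the precision. The members and gene lists were chosen with earlier results of these data known. Genes were named by rule: the 12 largest changes in each direction among called genes with separate groups, 3 called members and the first 2 entries of each list, and the 8 largest in each direction of the interaction and of the contrast with the other compounds. Other list members named were chosen after their values were seen. Same-numbered treated and vehicle arrays deviated together from their group means (correlation 0.338 to 0.581 in 6 pairs, against -0.394 to -0.0143 in 12 others). Deviations from a group mean cancel out, so positive values in the 6 pairs make those of the 12 negative on average. The numbers, which in the control titles go with culture days, were taken to pair the arrays in the replicate block only. The SEs and p-values of the valeric acid comparison come from the fit without that block, which treats arrays as independent. Alternatives covered the fold bound, the test, the controls, the scaling, the probe set rule, a filter on low genes, batch blocks and left-out replicates.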

Additional observations from a re-analysis of the deposited data

Results flagged for a closer look

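The effect of valeric acid differed between the exposure times in 6 genes when the replicate number was a block, and in none without the block or with a block of replicate number within time, which was chosen after seeing the data. The difference is the effect at 1 d minus the effect at 0.67 d on the log2 scale. Acot2 differed by 1.19 (SE 0.13), with an effect of -1.24 at 0.67 d and -0.04 at 1 d. The other 5 were further below vehicle at 1 d. Cyp2c12 differed by -2.001 (SE 0.23) and Slco1b2 by -1.61 (SE 0.18, effects -0.62 and -2.23). Psca, a surface antigen gene, differed by -1.42 (SE 0.14, effects -0.84 and -2.26), Anxa3 by -0.98 (SE 0.12, effects -3.73 and -4.71) and Serpina7, the thyroxine-binding globulin, by -0.89 (SE 0.10, effects -0.65 and -1.54). The cause of these differences was not tested.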

How the results depend on the processing

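The valeric acid comparison called 4039 genes. It called 1869 with a 2-fold bound and 6770 with no fold bound, 3842 to 4067 when a replicate number or a single array was left out, and 3396 to 4138 in the other settings. The interaction with time called 0 genes and 6 with the replicate block. When a single array or a replicate number was left out its count was 0 to 1: without valeric acid replicate 1 at 0.67 d 1 gene passed, Hao1 (-1.99, adjusted p = 0.00362), and without valeric acid replicate 1 at 1 d 1 gene passed, LOC100910973 (-1.61, adjusted p = 0.00164). A block of replicate number within time, chosen after seeing the data, called 0. The contrast with the other compounds called 3798 genes, 1684 with a 2-fold bound, 7838 with no fold bound and 3710 to 3847 without a replicate number. Valproic acid called 1212 genes, 367 with a 2-fold bound, 3559 with no fold bound, 1326 from the 0.67 d arrays alone, 572 from the 1 d arrays alone and 1095 to 1225 without a replicate number. With the replicate block these 3 comparisons called 4138, 3833 and 1269 genes, and the pairing changed no other count of calls by over 1.5 times.

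With each array's median subtracted, 2211 genes were higher and 1837 lower after valeric acid, against 1947 and 2092 in the reported comparison (54.6% and 48.2% higher), and the median change of all genes was 0.07 in place of 0.01. Of 154 named genes that were called, 117 stayed called in every setting but the 2-fold bound, and 0 changed sign. The 2-fold bound lost 35, the 0.67 d arrays alone 31, leaving out replicate 1 lost 17, all vehicle arrays of the campaign 10, median subtraction 4, the median of probe sets 3 (Ep300, Tpm1 and Cdh1) and the replicate block 0. Cyp2e1, Slc39a4, Tek, Otc, F10, Nfkbia, Cp, Acsm2 and Rgs5 lost the call most often.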
